A study of Mus musculus with 24 samples.

Results

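The genes described here are 10 imprinted genes that act on growth: H19, Igf2, Meg3, Rian, Mirg, Dlk1, Cdkn1c, Peg3, Plagl1 and Grb10. They were chosen by name, with earlier results of these data known. Each symbol was matched to its Ensembl gene identifier, which gave 10 of the 55416 genes in the count table. All 10 passed the filter on low counts, as did 16408 genes in all. RNA was sequenced from the gastrocnemius, a calf muscle, of mice of the strain labelled C56BL6J (C57BL/6J in the study's methods), which were 8 weeks old when bought and were fasted for 4 h before the muscle was taken. Mice were either ambulatory (Sham) or housed for 8 weeks in a small mouse cage (SMC) that restricts spontaneous movement, and all 4 groups (female Sham, female SMC, male Sham and male SMC) held 6 mice each. The 24 libraries held between 23026627 and 36880413 counts. The questions put to these genes were whether their RNA levels differed with SMC housing within each sex, and whether they differed between males and females.

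Imprinted genes are transcribed from the maternal or the paternal copy only, and many of them set the size of the fetus and of its muscles. Among the genes described here, H19, Meg3, Rian, Mirg, Cdkn1c and, outside neurons, Grb10 are transcribed from the maternal copy, whereas Igf2, Dlk1, Peg3 and Plagl1 are transcribed from the paternal copy. They have been described as a network because their levels rise together in fetal tissues and fall together as growth slows after birth, and several of them return in regenerating adult muscle. The libraries do not separate the parental copies, so levels below are sums over both copies.

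Several of these genes carry microRNAs, which were not measured as mature molecules by these libraries. The mature sequences are given because the host RNAs are the items measured, and the seed (bases 2 to 8), which sets most of a microRNA's targets, is in capitals. Sequences are from RefSeq (GRCm38.p6), and hosts were assigned by position and strand in the GENCODE M21 annotation. miR-675 lies in an exon of H19 (5p arm at chr7:142577112-142577133, minus strand) and miR-483 in an intron of Igf2 (3p arm at chr7:142654932-142654952, minus strand). On the plus strand of chromosome 12, miR-770 lies in an exon of Meg3 (5p arm at chr12:109563710-109563731), miR-370 in an intron of Rian (3p arm at chr12:109618305-109618326) and miR-410 in an exon of Mirg (3p arm at chr12:109743764-109743784). miR-379 (3p arm at chr12:109709102-109709123) and miR-411 (3p arm at chr12:109710225-109710246) lie between Rian and Mirg, and these arms share a seed.
miR-675-5p: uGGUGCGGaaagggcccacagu
miR-675-3p: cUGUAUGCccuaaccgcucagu
miR-483-3p: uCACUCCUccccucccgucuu
miR-770-5p: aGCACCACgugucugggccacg
miR-370-3p: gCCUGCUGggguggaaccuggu
miR-379-3p: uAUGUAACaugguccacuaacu
miR-411-3p: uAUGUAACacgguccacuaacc
miR-410-3p: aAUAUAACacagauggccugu
In all, 109 mature microRNAs lay inside these genes or between Dlk1 and 50 kb past Mirg on the same strand. They had 101 distinct seeds, and 8 seeds were shared by a pair of microRNAs. Mirg held 14 hairpins, of which 5 had at least 1 arm in an exon and 9 were wholly intronic. The gene-level table itself gave almost no reads to the small RNAs of this region: 59 microRNA genes between Dlk1 and Dio3 summed to 898 counts over 24 libraries, 18 small nucleolar RNA genes summed to 139 counts, Mir675 had 0 counts and Mir483 had 3. Of these microRNA and small nucleolar RNA genes 0 passed the filter.

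Promoter windows (250 bases before to 50 bases after the annotated start, RefSeq, GRCm38.p6) were held for 8 of the 10 genes, as 13 windows. H19 and Cdkn1c had none. Each window was searched on both strands for CAGCTG (an E-box read by myogenic factors), TGACGTCA (the palindromic cAMP response element), TATAAA, GGTCANNNTGACC (an oestrogen response palindrome) and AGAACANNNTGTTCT (an androgen and glucocorticoid response palindrome). The windows of Meg3, Peg3 and Grb10 are shown, the first pair because both hold TGACGTCA and Grb10 because the levels of this gene set the sexes apart; capitals mark motif matches.
Meg3, chr12:109540746-109541045, plus strand: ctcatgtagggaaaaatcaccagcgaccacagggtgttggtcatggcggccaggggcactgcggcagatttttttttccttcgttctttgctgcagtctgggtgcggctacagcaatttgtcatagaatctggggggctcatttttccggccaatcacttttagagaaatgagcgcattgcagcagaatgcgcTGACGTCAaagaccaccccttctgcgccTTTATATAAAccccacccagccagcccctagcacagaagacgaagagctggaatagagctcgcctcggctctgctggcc
Peg3, chr7:6730370-6730669, minus strand: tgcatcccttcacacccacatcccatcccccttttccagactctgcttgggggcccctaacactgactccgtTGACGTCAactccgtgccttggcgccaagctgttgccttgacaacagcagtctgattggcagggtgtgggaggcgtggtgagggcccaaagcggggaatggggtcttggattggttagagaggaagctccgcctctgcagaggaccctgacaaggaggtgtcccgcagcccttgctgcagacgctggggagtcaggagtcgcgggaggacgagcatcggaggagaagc
Grb10, chr11:12037371-12037670, minus strand: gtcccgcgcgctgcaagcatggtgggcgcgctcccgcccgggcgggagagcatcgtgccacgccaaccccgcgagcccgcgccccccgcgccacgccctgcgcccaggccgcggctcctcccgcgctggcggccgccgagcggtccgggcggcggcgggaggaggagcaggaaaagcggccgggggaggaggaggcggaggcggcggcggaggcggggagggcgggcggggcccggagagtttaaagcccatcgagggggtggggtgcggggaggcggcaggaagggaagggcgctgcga
TGACGTCA stood in 2 of the 13 windows, against 1.79% of all 32851 windows of the same length. The Meg3 window also held TATAAA on both strands in overlapping positions, a motif found in 13.6% of all windows. CAGCTG (16.3% of all windows), GGTCANNNTGACC (0.07%) and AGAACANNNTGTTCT (0.00913%) were in none of the 13. The Grb10 window shown held 45 CG dinucleotides, more than 98.1% of windows, and the other Grb10 window (chr11:12027922-12028221) held 9, more than 54.2% of windows. The window of Rian held 0, and the median over all windows was 7.

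Before the levels, the libraries themselves were examined. Markers of skeletal muscle fibres were high in every library, with a mean over 8 genes between 12.4 and 12.8 on the log2 scale of CPM, the read count scaled to a common library size. The slow fibre score, which is the mean log2 CPM of 9 genes of slow-twitch fibres, was 1.93 in male Sham 4 and 1.62 in female Sham 7 and between 5.68 and 8.38 in the other 22 libraries. Myh7, the slow myosin heavy chain, was at 7.99 CPM in male Sham 4 and at 7.02 CPM in female Sham 7, and no slow fibre marker had fewer than 5 reads in any library. These 2 libraries stood apart, and results that rest on them are given with and without them. In whole muscle, fewer cells of a type and less RNA per cell cannot be told apart.

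Per kilobase of exon, H19 was far above the other genes, with group means between 112 and 254 CPM per kb. Grb10 (4.39 to 7.90) and Cdkn1c (4.87 to 6.70) followed with overlapping group means, and then Peg3 (1.92 to 3.24). The group means of Meg3 (0.845 to 1.67), Rian (0.542 to 1.24) and Igf2 (0.516 to 0.799 CPM per kb) overlapped in a chain. Plagl1 (0.309 to 0.4999), Mirg (0.129 to 0.306) and Dlk1 (0.0929 to 0.150 CPM per kb) were lowest, and Dlk1 had between 5 and 33 reads in each library. The noncoding H19 RNA was thus the most abundant of the set in all 4 groups, and its protein-coding neighbour Igf2 was low in all 4.

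**Figure D1:**
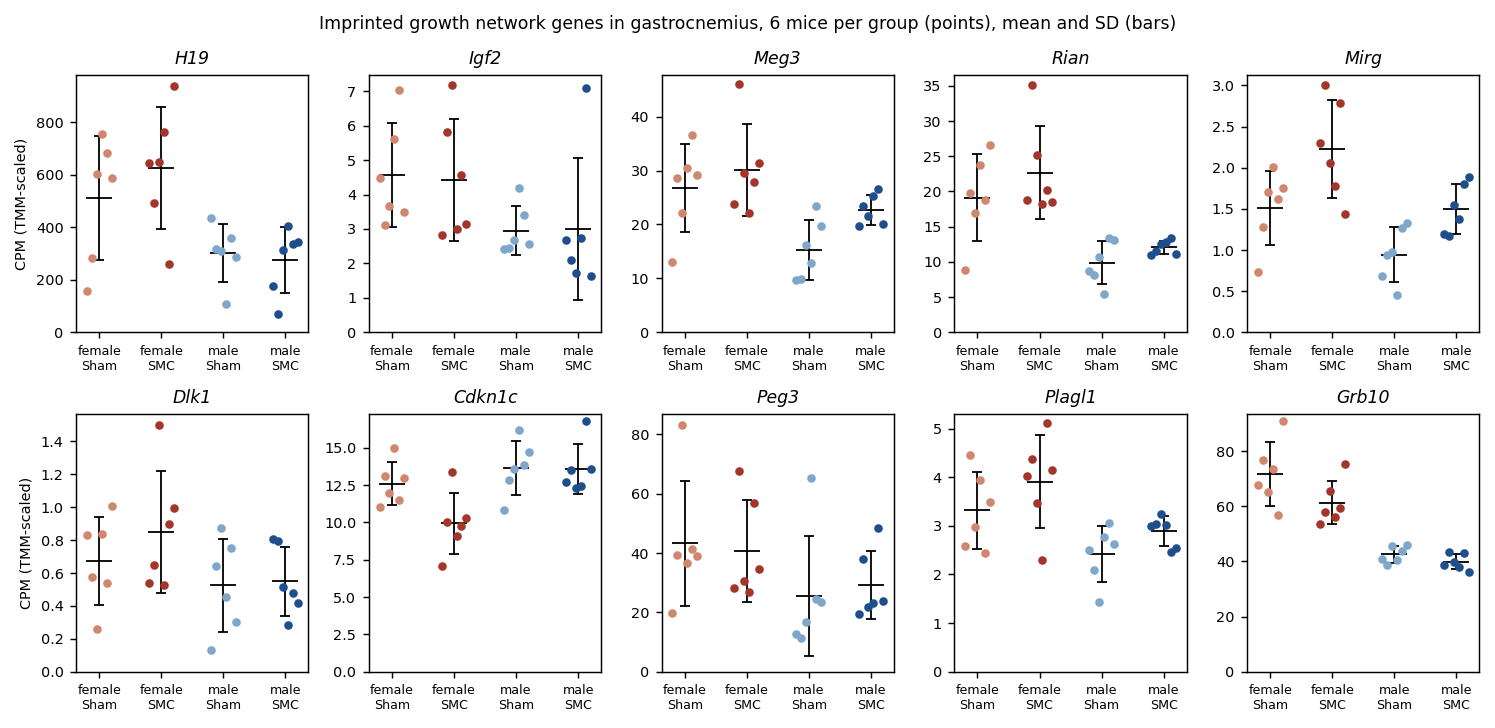
Level of each of the 10 genes in CPM (vertical axis, linear, starting at 0) in the 4 groups (horizontal axis). Each point is 1 mouse, the horizontal bar is the group mean and the vertical bar its SD (n = 6). For Grb10 every male lies below every female, from 36.3 to 45.9 CPM against 53.7 to 90.8 CPM.

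More of these genes passed the test between the sexes than between the housing conditions. Averaged over Sham and SMC, 7 of the 10 genes passed between males and females (edgeR FDR under 0.05), against 4.93% of all genes tested. Of these, 6 were lower in males (Grb10, Rian, Meg3, Mirg, H19 and Plagl1), against 2.54% of all genes lower in males, and Cdkn1c was higher in males. Igf2, Peg3 and Dlk1 had fitted values below 0 without passing. The median log2 difference, male minus female, was -0.62 over the 10 genes and -0.0037 over all genes tested. The 10 genes were chosen with earlier results of these data known, so the values over all genes are no independent test of them. Grb10, Rian and Meg3 passed in all 24 fits that left out 1 library, whereas the calls of H19, Mirg, Plagl1 and Cdkn1c did not.

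In Sham mice alone 2 of the 10 genes passed between the sexes, Grb10 and Rian (background 1.97% of genes), and in SMC mice alone the same 2 genes passed (background 1.03%). The direction of the fitted difference was the same in Sham and in SMC for all 10 genes. For SMC against Sham, 0 of the 10 genes passed in males (background 0%), 0 passed in females (background 0.341%) and 0 passed averaged over the sexes (background 2.36%). At an unadjusted p under 0.05 the counts were 2, 3 and 4 of the 10 genes, against 1805, 2049 and 2879 of all 16408 genes. With DESeq2 0, 0 and 1 of the 10 genes passed at an adjusted p under 0.05, against 133, 268 and 778 of all genes, and the 1 gene was Mirg. With limma voom 0 of the 10 genes passed in each, against 93, 16 and 541 of all genes. For the interaction of housing and sex 0 of the 10 genes passed with any of the 3 tools (background 0%, edgeR), and 0 were at an unadjusted p under 0.05, against 841 of all genes.

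**Figure D2:**
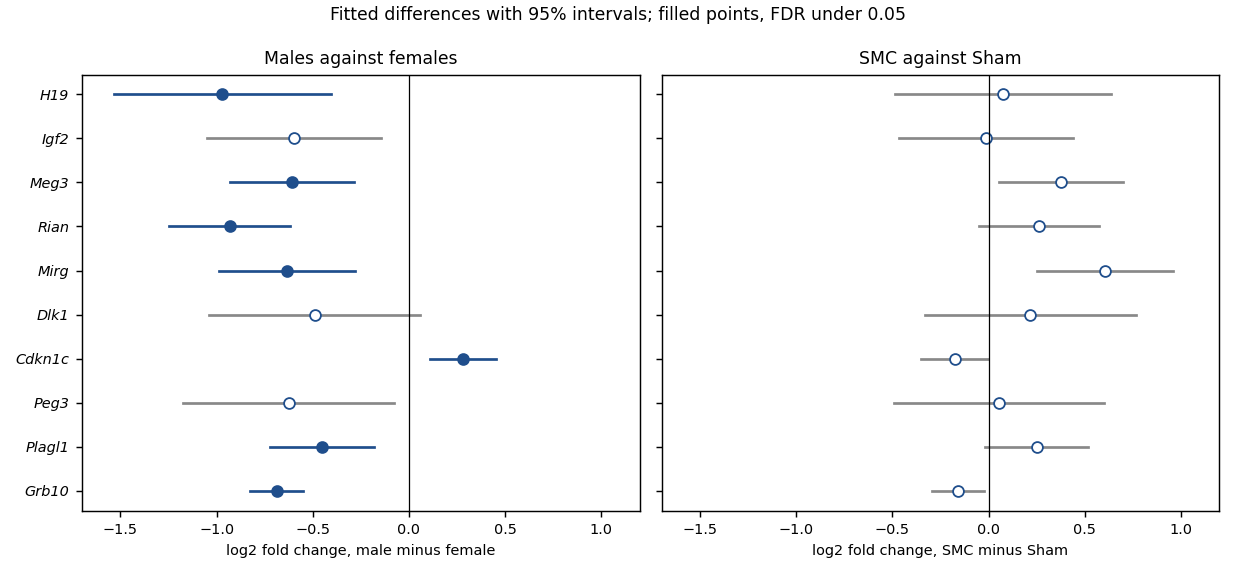
Fitted log2 fold changes of the 10 genes with 95% intervals (horizontal axis), for males against females averaged over housing (left) and SMC against Sham averaged over the sexes (right). Filled points passed FDR 0.05. On the left 9 of 10 points lie below 0, and 7 are filled; on the right none is filled.

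H19 is a maternally transcribed noncoding RNA that restrains growth and carries miR-675. In female Sham mice it ranged from 157 to 757 CPM with a median of 595, and in female SMC mice from 259 to 938 CPM with a median of 646. In male Sham mice it ranged from 107 to 434 CPM with a median of 314, and in male SMC mice from 71.5 to 406 CPM with a median of 325. The sexes overlapped, but 9 of 12 females were above the highest male. H19 was 1.96-fold lower in males (log2 -0.97 ± 0.27 SE, edgeR FDR 0.0396). The difference was -0.97 without male Sham 4 and female Sham 7 (FDR 0.0138). With the slow fibre score, centred on each group's mean, as a covariate it was -0.98 (FDR 3.36e-04). That covariate takes up spread within groups only, so differences between groups in the score were not adjusted for. In 13 of 24 fits that left out 1 library H19 missed the threshold, with FDR values from 0.0553 to 0.0758; these libraries were male Sham 2, 3 and 6, female Sham 9, 10, 11 and 12, male SMC 13 and 15, and female SMC 19, 21, 22 and 24. The SMC difference in H19 was 0.07 ± 0.27 SE (FDR 0.927), and it was -0.11 without the 2 libraries.

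Igf2 encodes insulin-like growth factor 2, the paternally transcribed growth factor that neighbours H19 on chromosome 7. Its median was 4.08 CPM in female Sham (3.11 to 7.04), 3.87 CPM in female SMC (2.84 to 7.17), 2.63 CPM in male Sham (2.42 to 4.18) and 2.40 CPM in male SMC mice (1.63 to 7.08). Of 12 males 9 were below the lowest female, and the others were male Sham 4 (4.18 CPM), male Sham 5 (3.41 CPM) and male SMC 17 (7.08 CPM). Igf2 did not pass between the sexes (-0.60 ± 0.22 SE, edgeR FDR 0.124). Without male SMC 17 the difference was -0.83 with FDR 0.00592, so that this library decided the call. Igf2 also passed with limma voom and sample weights (-0.76, FDR 0.0153). For SMC against Sham it gave -0.01 ± 0.22 SE (FDR 0.990).

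Nctc1, a noncoding gene next to H19 with muscle enhancers, was measured in the same region of chromosome 7. The mean level of Nctc1 in Sham mice was 203 ± 69.3 CPM (females) and 136 ± 19.985 CPM (males), and in SMC mice it was 174 ± 11.3 CPM (females) and 136 ± 21.8 CPM (males; SD, n = 6). Like H19, Nctc1 was lower in males (-0.46 ± 0.11 SE, edgeR FDR 0.0130). The noncoding gene Gm33148, on the other strand of this region, was instead higher in SMC mice (1.01 ± 0.26 SE, FDR 0.0410) and gave 0.38 ± 0.26 SE between the sexes (FDR 0.455). Gm33148 had only 599 reads over 24 libraries, and its SMC call was near the threshold. The strand setting of the counting was not given in the sources used here, so reads of the 2 strands may not be fully told apart.

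Meg3, Rian and Mirg are maternally transcribed noncoding RNAs that follow each other on one strand of chromosome 12, and Mirg and its surroundings hold a large cluster of microRNAs. Among Sham mice Meg3 spanned 12.97 to 36.6 CPM in females (median 28.9) and 9.74 to 23.5 CPM in males (median 14.5). Among SMC mice it spanned 22.1 to 45.98 CPM in females (median 28.7) and 19.7 to 26.5 CPM in males (median 22.5). Of the 12 females, 8 were above the highest male, and male Sham mice were the lowest group. Meg3 was 1.52-fold lower in males (-0.61 ± 0.16 SE, edgeR FDR 0.0233). The sex difference was -0.81 ± 0.22 SE in Sham (FDR 0.0574) and -0.41 ± 0.22 SE in SMC mice (FDR 0.548), and the interaction of 0.40 ± 0.31 SE did not pass (FDR 0.981). In Sham mice Meg3 passed with DESeq2 (FDR 0.0184), with limma voom (FDR 0.0386), without the 2 libraries that stood apart (FDR 0.0247), and when male Sham 5, female Sham 7 or female SMC 20 was left out (FDR 0.0139 to 0.0478).

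Rian hosts small nucleolar RNAs and lies just past Meg3. Among Sham mice Rian spanned 8.87 to 26.6 CPM in females (median 19.3) and 5.46 to 13.4 CPM in males (median 9.66). Among SMC mice it spanned 18.3 to 35.1 CPM in females (median 19.5) and 11.02 to 13.4 CPM in males (median 12.01). All females but female Sham 7 were above the highest male. Rian was 1.91-fold lower in males (-0.93 ± 0.15 SE, edgeR FDR 4.10e-04, rank 102 of 16408 genes by p). The difference was -0.95 ± 0.22 SE in Sham (FDR 0.0206) and -0.91 ± 0.22 SE in SMC mice (FDR 0.0343). In Sham mice the call was lost without male Sham 1, male Sham 2 or female Sham 12 (FDR 0.0530 to 0.0570).

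Mirg, which in the annotation used covers only the last part of the microRNA cluster, was low, with 11 to 93 reads per library. Among Sham mice Mirg spanned 0.731 to 2.01 CPM in females (median 1.66) and 0.455 to 1.33 CPM in males (median 0.961). Among SMC mice it spanned 1.44 to 3.005 CPM in females (median 2.18) and 1.18 to 1.88 CPM in males (median 1.46). The groups overlapped, and male Sham 4 and female Sham 7 were the lowest of their groups. Mirg was 1.55-fold lower in males (-0.63 ± 0.17 SE, edgeR FDR 0.0312), a call lost in 10 of 24 fits that left out 1 library: male Sham 1, female Sham 9, 10 and 12, male SMC 13, 14, 15 and 16, and female SMC 20 and 23 (FDR up to 0.0623). Of the 10 genes, Mirg had the smallest p for SMC against Sham averaged over the sexes. Its SMC difference was 0.61 ± 0.17 SE with edgeR FDR 0.0588, just above the threshold. It was 0.66 ± 0.25 SE in males and 0.55 ± 0.24 SE in females, neither of which passed (FDR 0.307 and 0.327). Mirg passed with DESeq2 (0.61, FDR 0.0174) and with at least 10 counts in every library (0.60, FDR 0.0492). It passed with the slow fibre score, centred on each group's mean, as a covariate (0.66, FDR 0.0107). That covariate leaves differences between groups in the score in place, and with it 910 of all genes were called, against 388 without it. Mirg also passed when male Sham 5, male Sham 6 or female SMC 24 was left out (FDR 0.0429 to 0.0468). It did not pass with no count filter (FDR 0.104), with limma voom (0.49, FDR 0.0789) or without male Sham 4 and female Sham 7 (0.47, FDR 0.0724). Meg3 and Rian gave SMC differences of 0.37 ± 0.16 SE (FDR 0.203) and 0.26 ± 0.15 SE (FDR 0.383).

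Dlk1 encodes a paternally transcribed transmembrane protein of the Notch ligand type that affects muscle mass and adipocyte formation. Its median in Sham mice was 0.703 CPM in females (0.263 to 1.005) and 0.548 CPM in males (0.131 to 0.873), and in SMC mice it was 0.775 CPM in females (0.526 to 1.4997) and 0.497 CPM in males (0.285 to 0.807). All 4 groups overlapped. The sex difference of -0.49 ± 0.27 SE did not pass (edgeR FDR 0.320), nor did the SMC difference of 0.22 ± 0.27 SE (FDR 0.730). Its depth was small beside its spread, with a coefficient of variation between 38.1% and 53.6% within groups.

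Between Dlk1 and Dio3, 7 genes were tested in all. Besides those above they were Gm37899 and B830012L14Rik, which lie on the strand of Rian and Mirg, and Dio3os. B830012L14Rik gave -0.48 ± 0.19 SE between the sexes (edgeR FDR 0.155), Gm37899 gave -0.33 ± 0.23 SE (FDR 0.474) and Dio3os, on the other strand, gave -0.08 ± 0.32 SE (FDR 0.927). The intervals were wide, and none of the 3 passed.

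Grb10 encodes an adaptor that binds the insulin and IGF1 receptors and restrains their signalling. In female Sham mice it ranged from 56.8 to 90.8 CPM (median 70.6) and in female SMC mice from 53.7 to 75.3 CPM (median 58.5). In male Sham mice it ranged from 38.5 to 45.9 CPM (median 42.4) and in male SMC mice from 36.3 to 43.4 CPM (median 39.3). All 12 males were below all 12 females, a separation in either direction that 39 genes showed, 0.238% of those tested. Grb10 was 1.61-fold lower in males (-0.69 ± 0.07 SE, edgeR FDR 1.73e-07, rank 20 of 16408 by p). The difference was -0.76 ± 0.09 SE in Sham (FDR 2.73e-05) and -0.62 ± 0.09 SE in SMC mice (FDR 3.69e-04), and between -0.72 and -0.65 when any 1 library was left out. The order of the group means was female Sham (71.8 ± 11.6 CPM), female SMC (61.3 ± 7.93), male Sham (42.5 ± 2.98) and male SMC (39.9 ± 2.82 CPM, SD, n = 6), in which neighbours of the same sex did not pass: SMC against Sham gave -0.23 ± 0.09 SE in females (FDR 0.292) and -0.09 ± 0.09 SE in males (FDR 0.789).

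Cdkn1c encodes p57, an inhibitor of cyclin-dependent kinases with a role in leaving the cell cycle. Among Sham mice Cdkn1c spanned 11.02 to 14.99 CPM in females (median 12.5) and 10.8 to 16.2 CPM in males (median 13.7). Among SMC mice it spanned 7.09 to 13.4 CPM in females (median 9.88) and 12.3 to 16.8 CPM in males (median 13.1). Female SMC mice were the low group, with 5 of 6 at or under 10.3 CPM and female SMC 21 at 13.4 CPM. It was the only gene of the 10 that was higher in males, 1.22-fold (0.28 ± 0.08 SE, edgeR FDR 0.0499). That call was at the threshold: it was lost in 21 of 24 fits that left out 1 library and was kept only without male Sham 1, female Sham 10 or female SMC 21, and it was lost without the 2 libraries that stood apart (0.24, FDR 0.083) and with limma voom (0.25, FDR 0.0571). The sex difference was 0.12 ± 0.12 SE in Sham (FDR 0.673) and 0.45 ± 0.12 SE in SMC mice (FDR 0.0676). In females SMC against Sham gave -0.34 ± 0.12 SE (unadjusted p 0.00790, FDR 0.195) and in males -0.01 ± 0.12 SE, and the interaction was 0.33 ± 0.17 SE (unadjusted p 0.0573, FDR 0.955).

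Peg3 encodes a paternally transcribed zinc finger protein that is expressed in muscle progenitors. Among Sham mice Peg3 spanned 19.9 to 83.1 CPM in females (median 39.2) and 11.3 to 65.2 CPM in males (median 20.01). Among SMC mice it spanned 26.99 to 67.6 CPM in females (median 32.6) and 19.6 to 48.4 CPM in males (median 23.5). The groups overlapped, and within male Sham mice male Sham 4 was at 65.2 CPM and the other 5 libraries lay between 11.3 and 24.3 CPM. The sex difference of -0.63 ± 0.27 SE did not pass (edgeR FDR 0.186). Without male Sham 4 it was -0.89 (FDR 0.0163), without male Sham 4 and female Sham 7 it was -0.96 (FDR 0.00586), and with limma voom, which gives these libraries less weight, it was -0.95 (FDR 0.00656). The SMC difference was 0.05 ± 0.26 SE (FDR 0.947). Usp29, which starts next to Peg3 on the other strand, had only 212 reads over 24 libraries and was also lower in males (-1.67 ± 0.39 SE, FDR 0.0125). The strand setting of the counting was not given in the sources used here, so reads of these overlapping or head-to-head genes may not be fully told apart. Zim1, the third gene tested there, gave -0.24 ± 0.16 SE (FDR 0.422).

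Plagl1 encodes a paternally transcribed zinc finger protein that arrests the cell cycle and has been reported to regulate other imprinted genes. Among Sham mice Plagl1 spanned 2.44 to 4.46 CPM in females (median 3.24) and 1.43 to 3.05 CPM in males (median 2.56). Among SMC mice it spanned 2.31 to 5.12 CPM in females (median 4.09) and 2.47 to 3.25 CPM in males (median 3.003). Of 12 females, 8 were above the highest male and 4 were within the male range. Plagl1 was 1.37-fold lower in males (-0.45 ± 0.13 SE, edgeR FDR 0.0431). The call was lost in 18 of 24 fits that left out 1 library, with FDR up to 0.0807, and was kept only without male Sham 4 or 5, female Sham 7, 9 or 11, or female SMC 22. SMC against Sham gave 0.25 ± 0.13 SE (FDR 0.326).

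The RNA levels of these genes were then compared mouse by mouse, after removing each group's mean from log2 CPM. Of 45 pairs, 2 passed a permutation test within groups (100000 permutations, adjusted p under 0.05), and both joined neighbours on chromosome 12. Rian and Mirg gave Pearson r = 0.82 (permutation p = 1.10e-04, adjusted p = 0.00495) and Spearman rho = 0.68 (permutation p = 0.00126, adjusted p = 0.0284). Meg3 and Rian gave r = 0.81 (permutation p = 4.10e-04, adjusted p = 0.00922) and rho = 0.83 (permutation p = 6.00e-05, adjusted p = 0.00270). Without the 2 mice farthest from the median of the first gene named, r was 0.74 for Rian and Mirg and 0.86 for Meg3 and Rian. The median r over all 45 pairs was 0.20, and the other 43 pairs did not pass.

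Leaving out male Sham 4 and female Sham 7 left Meg3 and Rian at r = 0.80 (adjusted p = 0.0207) and took Rian and Mirg to 0.61 (adjusted p = 0.108), so that the call of the second pair rested on these libraries. Igf2 and Meg3 passed only without them (r = 0.49, adjusted p = 0.0302; r = 0.36 over 24 mice). Within males alone, r was 0.73 for Meg3 and Rian and 0.85 for Rian and Mirg, and within females alone it was 0.87 and 0.80, which did not pass within either sex (adjusted p 0.0875 to 0.3). Within males Cdkn1c and Peg3 gave r = 0.83 (adjusted p = 0.0333), and within females r was 0.14. Meg3 and Mirg gave r = 0.63 (adjusted p = 0.0873). Dlk1, in the same region but on the paternal copy, gave r = 0.17 with Meg3, 0.09 with Rian and -0.03 with Mirg. H19 and Igf2 gave r = -0.02.

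**Figure D3:**
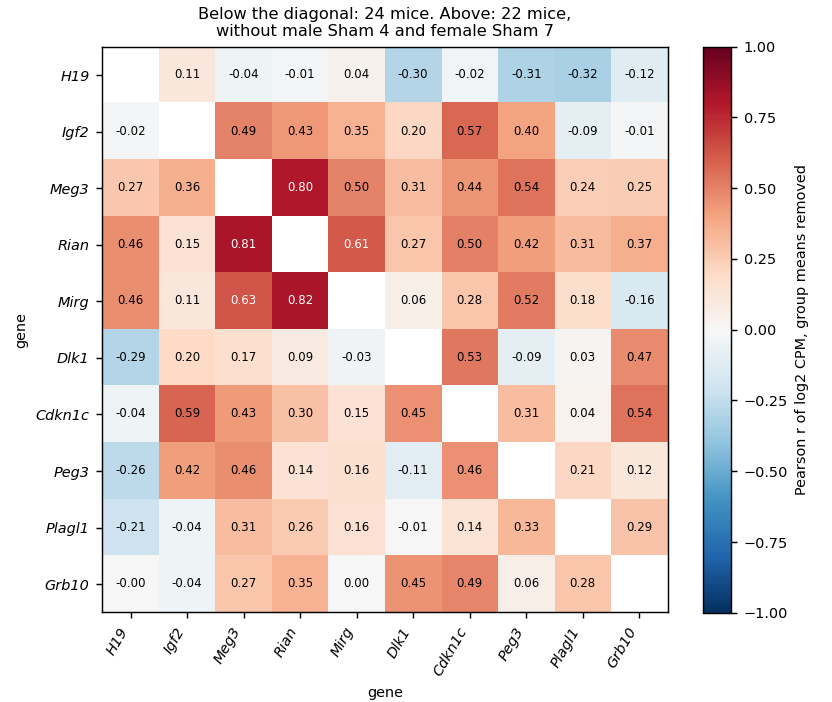
Pearson r of log2 CPM with group means removed for each pair of the 10 genes, over 24 mice below the diagonal and over 22 mice above it. The darkest cells are Meg3 with Rian (0.81 below, 0.80 above) and Rian with Mirg (0.82 below, 0.61 above).

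Other correlations among these genes changed with few mice. Igf2 and Cdkn1c gave r = 0.59 (adjusted p = 0.0676), and r was 0.31 without the 2 mice farthest from the median, one of which was male SMC 17, the highest of its group for both genes. H19 gave r = 0.46 with Rian and 0.46 with Mirg over 24 mice, and r = -0.01 and 0.04 without male Sham 4 and female Sham 7.

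For each of the 10 genes, the 3 likest genes by the same r over 24 mice are given as a description among 16407 genes. For H19 they were Tpm2 (r = 0.96), which encodes beta-tropomyosin, Ak4 (0.94) and Coq8a (0.94), and these values stayed at 0.90 or above without the 2 libraries. For Meg3 they were Gm37899 (0.84), Rian and Zfp185 (0.75), and for Rian they were Gm37899 (0.85), Prdx4 (0.85) and Mirg. Gm37899 lies in the same region and on the same strand as Rian, and the counting may share reads between such neighbours. For Mirg the likest were Rian, Pax7 (0.77), the transcription factor of muscle stem cells, and Pik3c2b (0.77), and r with Pax7 was 0.53 without the 2 libraries.

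For Grb10 the likest genes were Sorcs2 (0.81), Col4a1 (0.77), a basement membrane collagen, and Hspa5 (0.75), a chaperone of the endoplasmic reticulum. For Peg3 they were B930095G15Rik (0.86), Hdac5 (0.81), a histone deacetylase active in muscle, and Dgkz (0.81). For Plagl1 they were Gm33869 (0.76), Adipoq (0.75), the adipocyte hormone adiponectin, and Tmem45b (0.73). Igf2 was likest to D130062J10Rik (0.75), 2310015K22Rik (0.74) and Kmt5c (0.73), Dlk1 to Cdh4 (0.78), Ctnna3 (0.76) and Usf2 (0.76), and Cdkn1c to Rnf144a (0.77), Pcdhb17 (0.75) and a gene without a symbol (0.74).

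Levels of the 10 genes were set against lists of cell type and fibre markers, again with group means removed, which made 120 pairs of a gene and a list. Of these 4 passed (permutation test, adjusted p under 0.05). H19 rose with the slow fibre list (r = 0.83, rho = 0.77, each with permutation p = 1e-05, the smallest the permutations can give, and adjusted p = 0.0012). Without male Sham 4 and female Sham 7, which were also the 2 mice farthest from the median of the score, r was 0.88. H19 also rose with the endothelial list (r = 0.69, permutation p = 4.90e-04, adjusted p = 0.0294), but rho was 0.57 (permutation p = 0.00748, adjusted p = 0.155) and r without those libraries was 0.501 (adjusted p = 0.342). Plagl1 rose with the adipocyte list (r = 0.68, permutation p = 0.00153, adjusted p = 0.0459) with rho = 0.60 (permutation p = 0.00458, adjusted p = 0.155), and r was 0.70 without the libraries and 0.55 without the 2 mice farthest from the median score. Igf2 fell with the red blood cell list (r = -0.60, permutation p = 7.40e-04, adjusted p = 0.0296; rho = -0.67, permutation p = 5.00e-04, adjusted p = 0.03), and r was -0.64 without the libraries and -0.51 without the 2 farthest mice. Meg3 passed with the red blood cell list only without the libraries (r = -0.67, adjusted p = 0.0188).

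**Figure D4:**
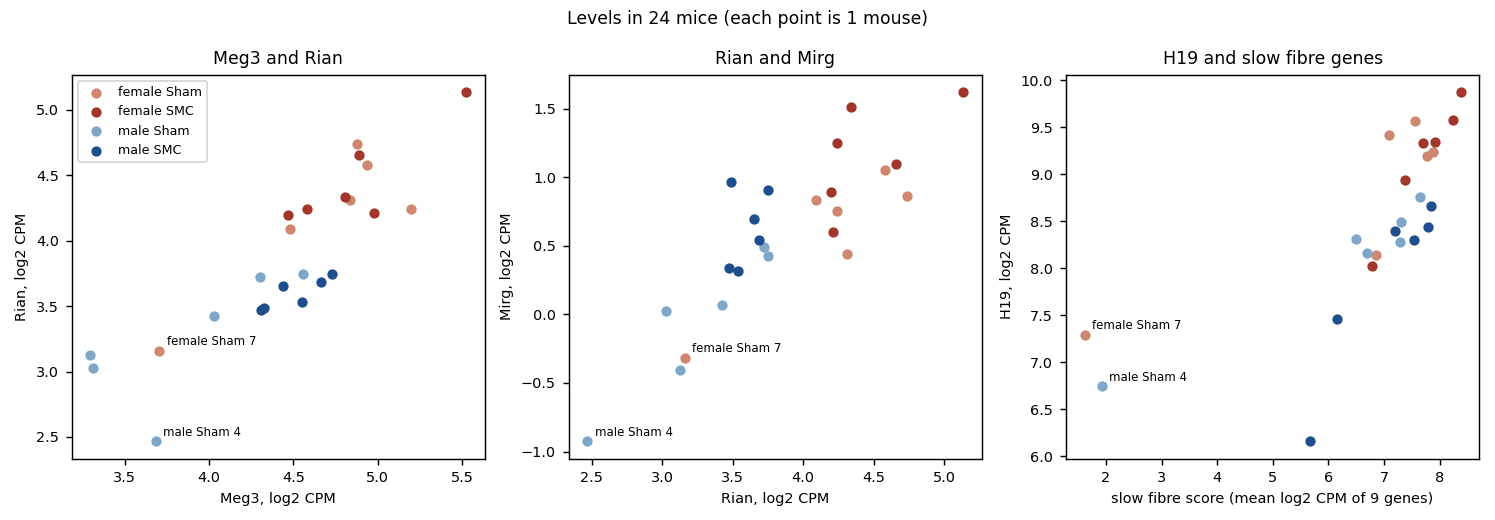
Each point is 1 mouse, coloured by group. The panels plot Rian against Meg3, Mirg against Rian, and H19 against the slow fibre score, all in log2 CPM. In the last panel male Sham 4 (score 1.93) and female Sham 7 (1.62) lie far left, and H19 still rises with the score among the other 22 mice.

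Since H19 moved with slow fibre genes within groups, the list is given beside its sex difference. The median log2 difference, male minus female, over the 9 slow fibre genes was -0.58, with 9 of 9 below 0, 0 called by edgeR, DESeq2 or limma voom and 0 at an unadjusted p under 0.05. Of all genes these tools called 4.93%, 6.72% and 8.65%, and 19.3% were at an unadjusted p under 0.05 (edgeR). The score ranged from 6.78 to 8.38 in female SMC, 1.62 to 7.88 in female Sham, 5.68 to 7.84 in male SMC and 1.93 to 7.65 in male Sham mice. With the score, centred on each group's mean, in the fit the H19 difference was -0.98, as given above. Differences between groups in the score stay in that value, so the part of slow fibre genes in the H19 sex difference was not tested. For Plagl1, the adipocyte list had a median of -1.06 with 5 of 6 genes lower in males. Of its genes 0 were called by edgeR or DESeq2 and 1 by limma voom, against 8.65% of all genes with limma voom. With edgeR 5 were at an unadjusted p under 0.05, against 19.3% of all genes. The sex difference of Plagl1 was -0.46 in Sham and -0.44 in SMC mice. In Sham mice the adipocyte list had a median of -0.53, with 0 genes at an unadjusted p under 0.05 (edgeR), against 15.5% of all genes. In SMC mice its median was -1.68, with 5 such genes, against 10.5% of all genes. No adipocyte marker had fewer than 5 reads in any library. Its score ranged from 2.19 to 5.17 in female SMC, 2.31 to 4.02 in female Sham, 1.14 to 3.19 in male SMC and 0.428 to 4.13 in male Sham mice, and its part in the Plagl1 result was not tested.

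Other imprinted genes were examined in the same fits. Of 46 other imprinted genes 32 were tested, and averaged over housing their median log2 difference between the sexes was -0.0016. Among them edgeR called 1 gene higher in males and 1 lower, against 4.93% of all genes called in either direction. DESeq2 called 2 of the 32 and limma voom 5, against 6.72% and 8.65% of all genes. At an unadjusted p under 0.05 (edgeR) were 7 of them, against 19.3% of all genes. The gene that was higher in males was Slc38a4, an amino acid transporter (0.61 ± 0.15 SE, edgeR FDR 0.0151; 1.05 ± 0.21 SE in SMC mice, FDR 0.00831, and 0.17 ± 0.21 SE in Sham mice, FDR 0.742, with an interaction of 0.88 ± 0.29 SE, FDR 0.926), and the one that was lower was Usp29, given above. For SMC against Sham averaged over the sexes edgeR called 1 of the 32, against 2.36% of all genes. It was Commd1, which fell by 0.23 ± 0.05 SE on the log2 scale (FDR 0.0138). DESeq2 and limma voom each called 3 of the 32, against 4.74% and 3.3% of all genes. In males Commd1 gave -0.30 ± 0.07 SE (FDR 0.093). Among 14 genes that maintain imprints, such as Zfp57, Trim28 and Dnmt1, 0 were called between the sexes by edgeR (3 at an unadjusted p under 0.05), 0 by DESeq2 and 1 by limma voom. Of all genes these tools called 4.93% (19.3% at an unadjusted p under 0.05), 6.72% and 8.65%.

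Of 17 partners of the IGF ligands 13 were tested, and 1 was called between the sexes averaged over housing (background 4.93% of genes). Igf1, the growth factor that shares its receptor with Igf2, was higher in males (0.82 ± 0.17 SE, edgeR FDR 0.00367), the opposite direction to the fitted value of Igf2. The mean level of Igf1 in Sham mice was 25.3 ± 8.22 CPM (males) and 13.3 ± 4.21 CPM (females), and in SMC mice it was 26.9 ± 6.48 CPM (males) and 16.5 ± 4.48 CPM (females; SD, n = 6). Igf1r, the receptor, gave -0.18 ± 0.07 SE (FDR 0.128). The SMC contrast averaged over the sexes called 0 partners with edgeR, 0 with DESeq2 and 0 with limma voom, against 2.36%, 4.74% and 3.3% of all genes. At an unadjusted p under 0.05 (edgeR) were 4 partners, against 17.5% of all genes. Among these partners the smallest p for SMC within females was that of Igfbp3, a binding protein of these ligands (-0.64 ± 0.22 SE, FDR 0.195), and for the interaction it was that of Igfbp5, which gave 0.77 ± 0.32 SE (FDR 0.926).

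Of the 5 CDK inhibitors tested beside Cdkn1c, edgeR called 1 between the sexes averaged over housing (background 4.93% of genes). It called 1 for SMC averaged over the sexes (background 2.36%). In both contrasts this was Cdkn1a, which encodes p21. The mean level of Cdkn1a in Sham mice was 62.8 ± 43.7 CPM (females) and 33.9 ± 20.8 CPM (males), and in SMC mice it was 21.1 ± 8.35 CPM (females) and 10.3 ± 1.49 CPM (males; SD, n = 6). Cdkn1a was lower in SMC mice (-1.65 ± 0.27 SE, edgeR FDR 0.00363) and lower in males (-0.97 ± 0.27 SE, FDR 0.0379). With edgeR neither sex passed alone for SMC (-1.58 ± 0.38 SE in females, FDR 0.0638, and -1.72 ± 0.39 SE in males, FDR 0.093). DESeq2 called 1 of the 5 for SMC in females and 1 in males, against 1.63% and 0.811% of all genes. With limma voom 0 of the 5 were called in each sex, against 0.0975% and 0.567%. Cdkn1a and its imprinted relative Cdkn1c had opposite directions between the sexes.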

How the data were processed

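Gastrocnemius RNA of 24 mice was sequenced from rRNA-depleted, strand-specific libraries. Per the labels, the authors trimmed reads with cutadapt 1.16, aligned them to GRCm39 with STAR 2.7.9a and counted them with featureCounts 1.6; the deposited values are raw read counts per Ensembl gene, not normalized. The annotation release and the strand setting were not given in the sources used here. Symbols were matched for 52083 of 55416 identifiers, and identifiers without a symbol held 0.361% of counts. Replicate libraries of a group differed by more than sampling noise in all 60 pairs (smallest chi-square per degree of freedom 10.7), and all 24 libraries matched their labelled sex.

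Counts were filtered with filterByExpr, scaled with TMM and tested with the quasi-likelihood test of edgeR 4.0.16 (R 4.3.3), with 1 mean per group over all 24 libraries. P-values were adjusted by Benjamini-Hochberg over 16408 genes, at FDR 0.05. The SE is the absolute log2 fold change divided by the square root of F. CPM are TMM-scaled, with a prior count of 2 before log2. The common biological coefficient of variation was 0.206. On simulated counts for SMC against Sham in males, the fit called 81.5% of 200 genes changed by 1 on the log2 scale among 16408, and 5.78% of its calls were unchanged genes. Correlations used 100000 two-sided permutations within groups. Exon lengths and gene positions came from GENCODE M21 (GRCm38), used for lengths, gene order and hosts of microRNAs; sequences came from RefSeq tables of GRCm38.p6.

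Alternatives were DESeq2 1.42.0, limma 3.58.1 with voom sample weights, a stricter and no count filter, and the libraries of 1 sex. Others left out 1 library, or both male Sham 4 and female Sham 7. A further fit added each library's slow fibre score minus its group mean. That term takes up spread within groups only, not differences between groups in the score. The contrast of the sexes within SMC mice, taken from the reported edgeR fit, was chosen after seeing the data. So were the list relations without male Sham 4 and female Sham 7. The genes and lists were chosen with earlier results of these data known. Genes were named if they were among the 10, if a listed non-marker gene passed FDR 0.05 or had 1 of the 2 smallest p in a contrast, or if they were among the 3 likest genes; genes of the members' regions were named as neighbours after their values were seen. Beyond strain, sex and housing, the labels tell the mice apart only by their number, so p-values measure the spread between these libraries.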

Additional observations from a re-analysis of the deposited data

Results flagged for a closer look

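For each of the 10 genes, the extreme mouse of every group of 6 was set against its neighbours on the log2 CPM scale, and its gap to the nearest of them was divided by the whole range (Dixon's criterion). Of 40 groups examined 3 held such a value, where chance alone gives about 5%. H19 in male Sham 4 was 107 CPM, against 286 to 434 CPM in the other 5 libraries. This library also had a slow fibre score of 1.93. Igf2 in male SMC 17 was 7.08 CPM, against 1.63 to 2.73 CPM in the other 5 libraries, and Cdkn1c in the same library was 16.8 CPM, against 12.3 to 13.6 CPM.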

How the results depend on the processing

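Averaged over housing, Grb10, Rian and Meg3 passed between the sexes under every alternative fit; within Sham mice (FDR 0.0574) and within SMC mice (FDR 0.548) Meg3 did not pass in the reported edgeR fit. The count of genes called among the 10 was 3 with no count filter and 2 for the contrast within SMC mice of the same fit, against 7, and 3 to 7 when 1 library was left out. In Sham it was 4 with voom and 4 without male Sham 4 and female Sham 7, against 2 (1 to 3 with 1 library left out). For SMC averaged over the sexes it was 1 with DESeq2, 1 with at least 10 counts in every library and 1 with the slow fibre covariate, against 0 (0 to 1). Over all genes, sex called 592 with no count filter and 1420 with voom, against 809 (618 to 1086). It called 1268 without the 2 libraries, 1323 with the covariate and 169 within SMC mice. In Sham it called 575 with DESeq2, 368 with voom, 511 without the 2 libraries and 630 with the covariate, against 324 (187 to 487). SMC averaged over the sexes called 778 with DESeq2 and 471 with at least 10 counts in every library, against 388 (236 to 501). It called 189 with no filter and 910 with the covariate. In females it called 268 with DESeq2, 14 with females only, 16 with voom, 155 without the 2 libraries and 293 with the covariate, against 56 (0 to 147). In males it called 133 with DESeq2, 93 with voom and 79 with the covariate, against 0 (0 to 78). The interaction called 1 with DESeq2, against 0 (0 to 1). The causes were not tested.

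Directions turned for values that were not called. Without the 2 libraries, SMC against Sham gave 0.033 for Cdkn1c in males, -0.11 for H19 and 0.046 for Igf2 averaged over the sexes; with voom it gave -0.018 for H19 averaged over the sexes and -0.19 for Igf2 in males. When 1 library was left out, SMC differences that turned direction ranged from -0.091 to 0.033 for Cdkn1c in males and from -0.13 to 0.30 for Dlk1 in males. For H19 they ranged from -0.020 to 0.17 averaged over the sexes and from -0.32 to 0.061 in males. For Igf2 they ranged from -0.24 to 0.070 averaged, from -0.23 to 0.11 in females and from -0.44 to 0.15 in males, and for Peg3 from -0.051 to 0.32 averaged, from -0.29 to 0.21 in females and from -0.020 to 0.71 in males. Mean CPM with DESeq2 size factors stayed within 1 SD for all 40 gene and group means. Dlk1 was not tested with at least 10 counts in every library. The count of pairs of the 10 genes that passed was 14 with no group means removed, 1 in males only and 0 in females only, against 2, and it was 2 without the 2 libraries, with Igf2 and Meg3 in place of Rian and Mirg. No paired analysis was possible because the number in each title belongs to 1 mouse, from 1 to 24, so that the groups share no number. Dlk1 had 5 to 33 reads and Mirg 11 to 93 reads per library.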
